A study of Homo sapiens with 9 samples.

Results

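The transcription factor NRF2 (gene NFE2L2), the proteins that hold it in check, its dimer partners and 2 of its best known target genes were followed through MDA-MB-231 cells treated with inducers of ferroptosis, an iron-dependent form of cell death caused by peroxidised lipids. The 10 genes were taken by name: NFE2L2 and its relative NFE2L1, KEAP1, CUL3, BACH1, MAFF, MAFG, MAFK, NQO1 and OSGIN1. They are 10 of the 58735 genes in the deposited tables, and all 10 were among the 16188 genes with enough counts to be tested. MDA-MB-231 is an established human triple-negative breast cancer line. RNA was sequenced in 9 libraries, 3 each of cells treated with DMSO (vehicle), cells treated with erastin (erastin-R) and cells treated with RSL3 (RSL3-R). Erastin blocks the cystine importer and starves cells of glutathione, whereas RSL3 inactivates the lipid peroxidase GPX4. The design text of the series calls the treated cells resistant, the study describes them as survivors of rising concentrations, and they are named resistant groups here without a measurement of resistance. All groups are the same line with no engineered allele. The labels give the agent but no dose, time or number of clones, and both resistant groups are compared with the same 3 vehicle libraries.

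NRF2 is made all the time and destroyed almost as fast. KEAP1, a protein whose cysteines sense electrophiles and oxidants, presents NRF2 to the CUL3 ubiquitin ligase, and when KEAP1 is modified NRF2 escapes and reaches the nucleus. There it pairs with a small MAF protein (MAFF, MAFG or MAFK) on antioxidant response elements, and BACH1, a heme-sensitive repressor, competes for the same partners and the same elements. The genes under these elements make glutathione, reduce thioredoxin, store iron and break down heme, which are steps that bear on ferroptosis. Since NRF2 is controlled mainly as a protein, its own transcript is a poor gauge of its activity, and no protein was measured here. NRF1 (gene NFE2L1) is an endoplasmic reticulum-bound relative that binds similar elements and drives the genes of the proteasome.

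The elements can be looked for in the DNA next to the starts of the genes. RefSeq windows of 300 bases in GRCh38.p14, from 250 bases before to 50 after a start, were found for 9 of the 10 genes, all but MAFK, with 16 windows in all. The letters TGACNNNGC, the core of an antioxidant response element, were searched on both strands. They were in 2 of the 16 windows (12.5%), against 13.3% of the 35116 windows of all genes, and in 9 of the 28 windows (32.1%) of the NRF2 target genes described further on. Those 28 windows belong to 22 of the 32 target genes, 8 of them with a match. HMOX1, SLC7A11 and FTH1 are among the targets without a window. Among the 10 genes, 1 of the 2 windows of KEAP1 held 2 matches, 54 and 31 bases before its start. Of the 2 windows of MAFF, 1 held 1 match, 122 bases before its start. The second window of each gene held 0 matches. KEAP1 and MAFF are shown because they hold matches, NQO1 because it is a textbook target with no match in this window, and GCLM and TXNRD1 as target genes with matches. Each line gives the 250 bases before one annotated start and the first transcribed base, read 5′ to 3′ along the gene, with matches of either strand in capitals.
KEAP1, chr19:10502771-10503021, strand -: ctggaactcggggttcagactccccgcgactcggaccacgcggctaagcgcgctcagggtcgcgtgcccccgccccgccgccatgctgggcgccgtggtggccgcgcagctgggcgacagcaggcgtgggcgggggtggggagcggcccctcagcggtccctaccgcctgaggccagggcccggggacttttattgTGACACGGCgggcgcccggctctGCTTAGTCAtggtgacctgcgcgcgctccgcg
MAFF, chr22:38201744-38201994, strand +: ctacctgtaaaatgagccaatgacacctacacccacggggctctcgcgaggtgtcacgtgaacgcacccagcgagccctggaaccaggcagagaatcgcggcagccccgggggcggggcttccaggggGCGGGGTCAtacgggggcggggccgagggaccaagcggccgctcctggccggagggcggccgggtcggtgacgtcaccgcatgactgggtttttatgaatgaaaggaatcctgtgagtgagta
NQO1, chr16:69726560-69726810, strand -: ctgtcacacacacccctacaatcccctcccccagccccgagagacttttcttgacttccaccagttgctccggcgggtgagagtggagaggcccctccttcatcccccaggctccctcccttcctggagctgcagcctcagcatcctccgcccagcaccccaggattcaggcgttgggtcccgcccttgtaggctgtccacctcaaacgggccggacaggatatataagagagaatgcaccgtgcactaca
GCLM, chr1:93909430-93909680, strand -: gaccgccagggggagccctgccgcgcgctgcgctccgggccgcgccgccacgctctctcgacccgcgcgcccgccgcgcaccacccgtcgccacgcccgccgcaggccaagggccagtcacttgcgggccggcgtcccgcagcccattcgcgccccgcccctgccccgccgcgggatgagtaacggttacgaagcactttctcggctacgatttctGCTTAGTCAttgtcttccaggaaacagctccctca
TXNRD1, chr12:104215529-104215779, strand +: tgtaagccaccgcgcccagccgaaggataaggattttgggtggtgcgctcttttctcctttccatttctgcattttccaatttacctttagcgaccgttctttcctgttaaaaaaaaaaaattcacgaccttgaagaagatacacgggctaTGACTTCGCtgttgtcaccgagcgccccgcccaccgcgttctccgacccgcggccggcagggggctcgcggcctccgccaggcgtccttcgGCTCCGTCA
The match in GCLM and the second match in KEAP1 are the same 9 letters, GCTTAGTCA as printed and TGACTAAGC on the other strand. A match is only a run of letters and was not tested for binding, and elements farther from the start lie outside these windows.

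The libraries held 15405102 to 17273464 counts. The coefficient of variation between libraries of one group, beyond counting noise and shared by all genes tested, was about 8.56% in edgeR. The labels do not say whether the 3 libraries of a group came from separate cultures, so p values measure the spread between libraries, which may be technical. Erastin-R replicate 1 stood apart from the other erastin-R libraries, with a score of -35.7 on the third principal component (6.72% of the variance) against 14.4 and 13.0. For the 10 genes, calls that rest on it are given with and without it. Counts over the gene lists use all 9 libraries unless stated, and some other list genes gain or lose a call without it. All 5 markers of the line (VIM, CD44, EGFR, AXL and LGALS1) were high, with a summed level of 3341 to 3436 CPM (counts scaled to library size) in vehicle, 3728 to 4020 in erastin-R and 3609 to 3699 in RSL3-R libraries. The 7 luminal, immune and endothelial markers summed to 18.9 to 21.5, 9.29 to 12.9 and 20.1 to 24.7 CPM, none of them at 0 throughout a group. PECAM1 made up most of the difference, with 9.99, 1.79 and 12.8 CPM, and its part in the results was not tested. In bulk RNA, a change in some of the cells and a change in all of them cannot be told apart.

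In erastin-R cells 6 of the 10 genes rose, NQO1, OSGIN1, BACH1 and all 3 small MAFs, and none fell. Rising and falling here mean an adjusted p under 0.05, which 54.0% of all genes tested passed in this comparison, 27.1% upward and 26.8% downward. The test was edgeR's, and DESeq2, limma and an unadjusted p under 0.05 also gave 6 risen and 0 fallen. In RSL3-R cells 6 rose as well (NFE2L2, NFE2L1, BACH1 and the 3 small MAFs) and KEAP1 fell, where 48.7% of all genes were called, 23.8% higher and 24.9% lower. Between the resistant groups, 3 were higher and 6 lower in RSL3-R than in erastin-R cells, beside 49.2% of all genes called, 22.3% higher and 26.9% lower. With a change of at least 2-fold as well, 4 rose in erastin-R cells (MAFF, NQO1, OSGIN1 and MAFK) and BACH1 alone in RSL3-R cells. The backgrounds for that rule were 13.4% (6.7% higher) and 10.1% (6.02% higher and 4.08% lower). By the same rule NQO1 and OSGIN1 were lower in RSL3-R than in erastin-R cells, where 10.3% of all genes were called, 6.86% higher and 3.48% lower.

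**Figure D1:**
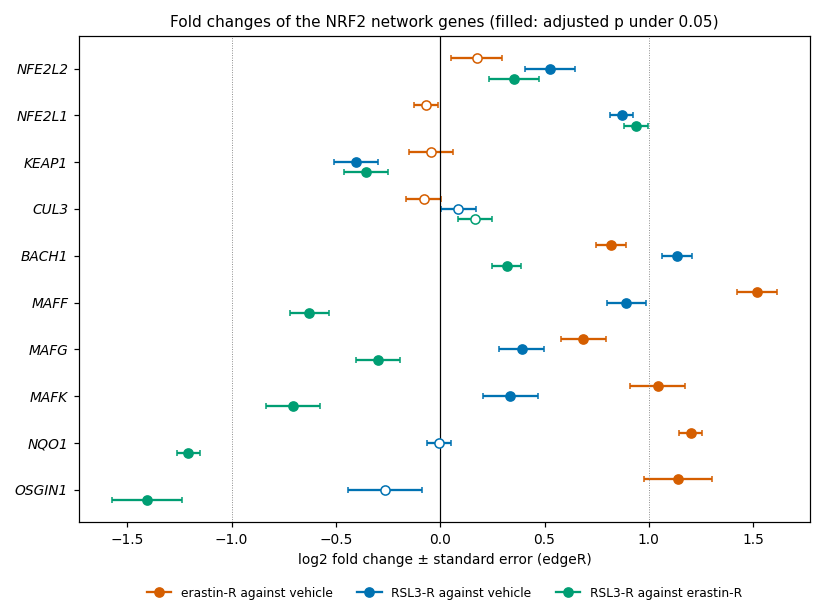
Log2 fold change of each of the 10 genes with its standard error from edgeR, for each comparison in its own colour, with filled points where the adjusted p was under 0.05 and dotted lines at 2-fold. NQO1 and OSGIN1 lie past 1 in erastin-R cells only, NFE2L1 is moved in RSL3-R cells only, and BACH1 and the small MAFs lie to the right in both comparisons with vehicle.

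NFE2L2 (ENSG00000116044, chromosome 2, 177227595 to 177392697, minus strand, GRCh38) rose in RSL3-R cells. Its levels were 100.4, 119 and 125 CPM in the vehicle libraries, 159, 106 and 123 in erastin-R replicates 1 to 3, and 157, 162 and 178 in RSL3-R libraries. All 3 RSL3-R libraries lay above all 3 vehicle libraries, whereas the erastin-R and vehicle ranges overlapped. The log2 fold change (log2FC) in RSL3-R cells was 0.53 (standard error, SE, 0.12, adjusted p = 0.00247), and sizes of change given without a unit are log2FC values throughout. In erastin-R cells the estimate of 0.17 was not called (adjusted p = 0.239), with a 95% confidence interval of -0.08 to 0.43. Without erastin-R replicate 1 that value was -9.02e-05 (adjusted p = 0.999), and without erastin-R replicate 2 it was 0.30 (adjusted p = 0.0386). NFE2L2 was also higher in RSL3-R than in erastin-R cells by 0.35 (adjusted p = 0.0255), but the ranges overlapped and the call was lost without erastin-R replicate 2 or 3 or RSL3-R replicate 2 or 3 (adjusted p 0.115, 0.0811, 0.0529 and 0.0695), the first of these leaving a log2FC of 0.23. Without erastin-R replicate 1 this direct difference was larger, at 0.525 (adjusted p = 3.84e-07). Exons of AC019080.1, a gene on the same strand with at most 169 counts, cover 17.6% of the exon length of NFE2L2.

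KEAP1 (ENSG00000079999, chromosome 19, 10486120 to 10503741, minus strand), the sensor that hands NRF2 to the ligase, moved the other way. It had 91.9, 85.1 and 77.4 CPM in vehicle, 66.3, 92.7 and 87.5 in erastin-R, and 62.0, 63.9 and 66.6 in RSL3-R libraries. The RSL3-R libraries were all below the vehicle libraries, and the log2FC was -0.40 (SE 0.11, adjusted p = 0.00632). In erastin-R cells the estimate was -0.05 (adjusted p = 0.737, 95% interval -0.27 to 0.18), with replicate 1 at the RSL3-R level and the other two at the vehicle level. KEAP1 was lower in RSL3-R than in erastin-R cells by a log2FC of -0.36 (adjusted p = 0.0129), with overlapping ranges, and this was lost without erastin-R replicate 2 (0.0635), without RSL3-R replicate 1 (0.079) and with quantile normalization (0.0643). Without erastin-R replicate 1 the direct difference in KEAP1 was larger, at -0.491 (adjusted p = 2.8e-07). CUL3 (ENSG00000036257, chromosome 2, 224470150 to 224585397, minus strand), the scaffold of the ligase, was not called in any comparison. Its levels ran from 75.5 to 86.7 CPM in vehicle, 71.0 to 85.4 in erastin-R and 80.9 to 87.7 in RSL3-R libraries, with a 95% interval of the log2FC of -0.26 to 0.10 in erastin-R and -0.09 to 0.26 in RSL3-R cells. Without erastin-R replicate 1, its highest erastin-R library, CUL3 was called lower in erastin-R than in vehicle cells (log2FC -0.18, adjusted p = 0.0206) and higher in RSL3-R than in erastin-R cells (0.26, adjusted p = 0.00107). Quantile normalization called the direct comparison as well (adjusted p = 0.0151).

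NFE2L1 (ENSG00000082641, chromosome 17, 48048329 to 48061487, plus strand) rose in RSL3-R cells and was higher there than in erastin-R cells. It had 323, 328 and 299 CPM in vehicle, 309, 291 and 306 in erastin-R, and 562, 597 and 576 in RSL3-R libraries. Vehicle and erastin-R libraries overlapped and every RSL3-R library was well above both. The log2FC was 0.87 in RSL3-R cells (SE 0.06, adjusted p = 3.57e-08), -0.07 in erastin-R cells (adjusted p = 0.338, 95% interval -0.19 to 0.06) and 0.94 between RSL3-R and erastin-R cells (adjusted p = 3.13e-08).

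BACH1 (ENSG00000156273, chromosome 21, 29194071 to 29630751, plus strand), the repressor, rose in both resistant groups. It had 49.3, 49.04 and 54.8 CPM in vehicle, 90.5, 92.7 and 86.7 in erastin-R, and 116, 104 and 117 in RSL3-R libraries, so that the 3 groups did not overlap. The log2FC values were 0.82 in erastin-R cells (SE 0.07, adjusted p = 5.04e-07) and 1.14 in RSL3-R cells (SE 0.07, adjusted p = 2.2e-08), and RSL3-R was above erastin-R by 0.32 (adjusted p = 0.00172).

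**Figure D2:**
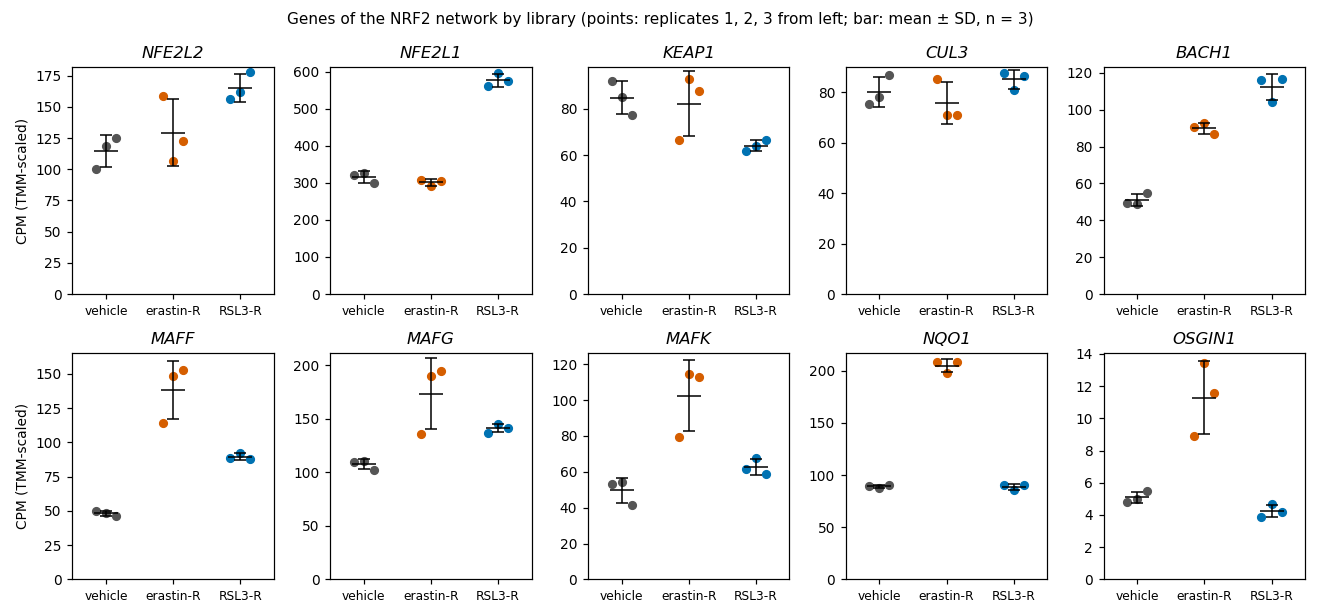
Level of each of the 10 genes in CPM, scaled by the trimmed mean of M values (TMM), with replicates 1, 2 and 3 of each group from left to right and a bar for the mean ± SD (n = 3). NQO1 is near 200 CPM in erastin-R and near 90 in the other groups, NFE2L1 is high in RSL3-R libraries alone, and the first erastin-R point lies off the other 2 for NFE2L2, KEAP1, CUL3, the small MAFs and OSGIN1.

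The small MAFs lack an activation domain of their own and lend DNA binding to NRF2, NRF1 and BACH1 alike. MAFF (ENSG00000185022, chromosome 22, 38200767 to 38216511, plus strand) rose in both resistant groups. It had 49.96, 48.4 and 46.6 CPM in vehicle, 114, 149 and 153 in erastin-R, and 88.5, 92.4 and 88.3 in RSL3-R libraries, with no overlap between groups. Its log2FC was 1.52 in erastin-R cells (SE 0.09, adjusted p = 2.44e-08), 0.89 in RSL3-R cells (adjusted p = 3.85e-06), and -0.63 in RSL3-R against erastin-R cells (adjusted p = 7.92e-05). MAFG (ENSG00000197063, chromosome 17, 81918270 to 81927714, minus strand) had 109.99, 111 and 102 CPM in vehicle, 135, 190.4 and 194 in erastin-R, and 137, 145 and 141 in RSL3-R libraries. Every resistant library was above the vehicle libraries. Its log2FC was 0.69 in erastin-R cells (adjusted p = 0.0001) and 0.39 in RSL3-R cells (adjusted p = 0.00783). MAFG was lower in RSL3-R than in erastin-R cells (log2FC -0.30, adjusted p = 0.032) with overlapping ranges. That call was lost without any one of erastin-R replicates 2 and 3 and the 3 RSL3-R libraries (adjusted p 0.0631 to 0.148), with quantile normalization (0.167) and in a fit of these 2 groups alone (0.1). Without erastin-R replicate 1 the direct difference in MAFG was larger, at -0.448 (adjusted p = 9.35e-09).

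MAFK (ENSG00000198517, chromosome 7, 1530714 to 1543043, plus strand) had 53.3, 54.1 and 41.7 CPM in vehicle, 79.4, 115 and 113 in erastin-R, and 61.8, 67.7 and 58.7 in RSL3-R libraries. It rose in erastin-R cells by 1.04 (SE 0.13, adjusted p = 1.56e-05). In RSL3-R cells its log2FC of 0.34 just passed (adjusted p = 0.0496), and this was lost with total-count scaling (0.0569) and without any one library of the comparison except RSL3-R replicate 3, with adjusted p of 0.0624 and 0.0525 without vehicle replicates 1 and 2 and 0.066 and 0.168 without RSL3-R replicates 1 and 2. Without vehicle replicate 3 the log2FC was 0.22 (adjusted p = 0.22). MAFK was lower in RSL3-R than in erastin-R cells by a log2FC of -0.71 (adjusted p = 0.000489). Exons of TMEM184A on the opposite strand, with at most 262 counts in a library, cover 18.2% of its exon length, and the library kit does not mark strand. Erastin-R replicate 1 was the lowest erastin-R library for all 3 small MAFs, below the mean of the other two by a log2 difference of -0.40 for MAFF, -0.51 for MAFG and -0.52 for MAFK. Its part in these results was not tested beyond leaving it out, which kept all 3 calls in erastin-R cells.

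NQO1 and OSGIN1 stand for the output of the pathway. NQO1 (ENSG00000181019, chromosome 16, 69706996 to 69726951, minus strand), a quinone reductase, had 89.8, 87.5 and 90.1 CPM in vehicle, 209, 198 and 208 in erastin-R, and 90.0, 85.6 and 90.6 in RSL3-R libraries. The erastin-R libraries lay far above the others, and the vehicle and RSL3-R libraries overlapped. NQO1 rose 2.30-fold in erastin-R cells (log2FC 1.20, SE 0.06, adjusted p = 1.98e-09). In RSL3-R cells its log2FC was -0.01 (adjusted p = 0.936), with a 95% interval of -0.13 to 0.12, and its sign changed with the scaling. RSL3-R was below erastin-R by a log2FC of -1.21 (adjusted p = 3.04e-09). Replicate 1 was no exception here, at a log2 difference of 0.04 from the other erastin-R libraries. The overlapping gene AC092115.2 had no counts.

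OSGIN1 (ENSG00000140961, chromosome 16, 83948282 to 83966332, plus strand), an oxidative stress-induced inhibitor of growth, was the least abundant of the 10, with 60 to 211 counts in a library where the other 9 genes had 676 to 9849. It had 4.83, 5.003 and 5.49 CPM in vehicle, 8.87, 13.4 and 11.6 in erastin-R, and 3.87, 4.66 and 4.21 in RSL3-R libraries. Erastin-R libraries were all higher, and the RSL3-R libraries were all just below the vehicle libraries. Its log2FC was 1.14 in erastin-R cells (SE 0.16, adjusted p = 4.76e-05), -0.27 in RSL3-R cells (adjusted p = 0.238, 95% interval -0.65 to 0.12) and -1.41 between RSL3-R and erastin-R cells (adjusted p = 1.31e-05).

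Levels of different genes can be compared only per length, for which the deposited FPKM values (fragments per kilobase of exon, scaled to library size) were used without a test. In vehicle cells NFE2L1 was the most abundant with a mean of 53.7 FPKM, followed by NQO1 (27.1), and then by KEAP1 (22.3), MAFG (20.4) and NFE2L2 (19.0), where neighbours overlapped over the 3 libraries. MAFK (11.03) and MAFF (8.51) came next, CUL3 (6.89) and BACH1 (6.55) overlapped, and OSGIN1 (1.46) was last. In erastin-R cells NQO1 (62.1 FPKM) stood above NFE2L1 (51.1), and MAFG, MAFF, MAFK, KEAP1 and NFE2L2 followed between 32.8 and 21.3 with overlap between neighbours. BACH1 (11.5), CUL3 (6.49) and OSGIN1 (3.22) came after them. In RSL3-R cells NFE2L1 led with 98.5 FPKM, NFE2L2 (27.4), NQO1 (27.1) and MAFG (26.9) overlapped, and KEAP1 (16.9), MAFF (15.9), BACH1 (14.4), MAFK (14.0), CUL3 (7.34) and OSGIN1 (1.22) followed, with BACH1 and MAFK overlapping.

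Shares and ratios of the partners' transcripts were described from these levels, also without a test. Summed over MAFF, MAFG and MAFK, the small MAF transcripts came to 40.0 ± 2.61 FPKM in vehicle, 79.8 ± 14.6 in erastin-R and 56.7 ± 1.90 in RSL3-R (SD, n = 3 each). The sum was 62.9 FPKM in erastin-R replicate 1 and 87.4 and 89.0 in the others. MAFF made up 20.5% to 22.3% of the sum in vehicle, 29.8% to 31.7% in erastin-R and 27.7% to 28.2% in RSL3-R libraries, so its share differed between groups by more than the libraries did, erastin-R replicate 1 included. The share of MAFG was 51.2% ± 1.26 in vehicle, 41.0% ± 0.516 in erastin-R and 47.4% ± 0.889 in RSL3-R.

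The ratio of NFE2L2 to KEAP1 FPKM was 0.687, 0.879 and 1.01 in vehicle and 1.59, 1.59 and 1.68 in RSL3-R libraries, which did not overlap. In erastin-R libraries it was 1.51 in replicate 1 but 0.721 and 0.884 in replicates 2 and 3. The ratio of NFE2L2 to its rival BACH1 was lower in both resistant groups, at 2.90 ± 0.253 in vehicle, 1.86 ± 0.392 in erastin-R and 1.90 ± 0.142 in RSL3-R (SD, n = 3), and no resistant library reached the lowest vehicle library (2.63).

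**Figure D3:**
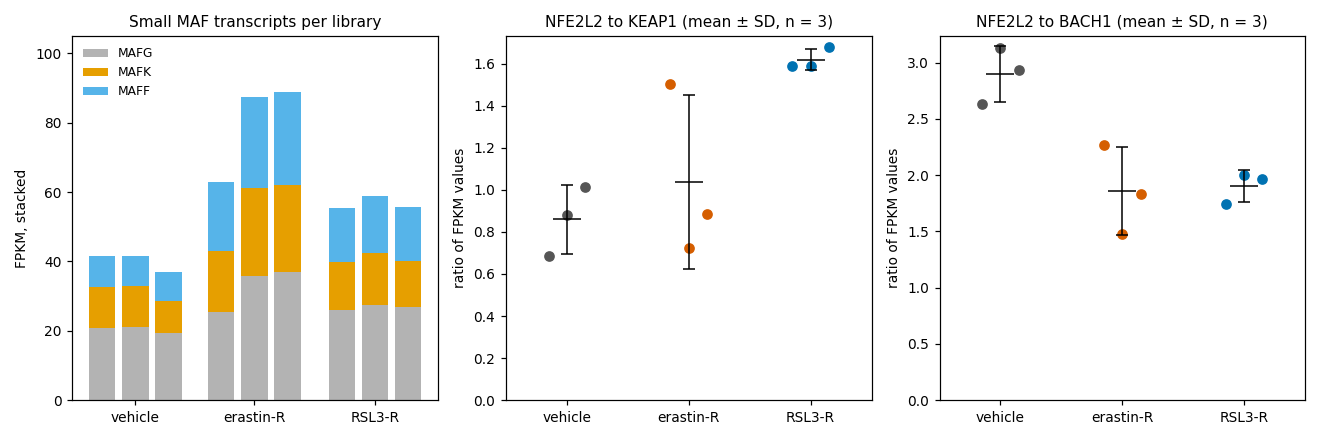
Left, FPKM of MAFG, MAFK and MAFF stacked for each library in replicate order; middle and right, ratios of NFE2L2 to KEAP1 and of NFE2L2 to BACH1 FPKM per library, with mean ± SD (n = 3). The small MAF sum is highest in erastin-R libraries (62.9 to 89.0), the first ratio is highest in RSL3-R libraries (1.59 to 1.68) apart from one erastin-R library near them, and the second is lower in both resistant groups.

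A list of 32 other genes known as NRF2 targets, of which AKR1B10 and GPX2 had too few counts to test, was set beside NQO1 and OSGIN1. Of the 30 tested, 26 rose and 3 fell in erastin-R cells, where 27.1% and 26.8% of all genes did, and the median log2FC was 0.96 against -0.00418 over all genes. In RSL3-R cells 15 rose and 5 fell, beside 23.8% and 24.9% of all genes, with a median of 0.29 (0.00523 over all genes). Without erastin-R replicate 1, GCLC and UGDH joined the risen in RSL3-R cells, and GSR, SRXN1, PGD and TALDO1 joined the fallen. Directly compared, 23 were lower and 1 higher in RSL3-R than in erastin-R cells, beside 26.9% and 22.3% of all genes, with a median of -0.53 (-0.02 over all genes). At 2-fold or more, 13 rose in erastin-R cells (6.7% of all genes), 3 rose and 1 fell in RSL3-R cells (6.02% and 4.08%), and 8 were lower in RSL3-R than in erastin-R cells (3.48%). The list was chosen with earlier results of these data known and is no independent evidence of its direction.

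All 4 heme and iron genes (HMOX1, BLVRB, FTH1 and FTL) rose in both resistant groups and were lower in RSL3-R than in erastin-R cells. HMOX1, which breaks down heme, had 8.76 ± 0.700 CPM in vehicle, 25.4 ± 1.13 in erastin-R and 12.3 ± 1.35 in RSL3-R (SD, n = 3), with log2FC values of 1.53 (adjusted p = 9.36e-08) and 0.49 (adjusted p = 0.00314). FTH1, the heavy chain of the iron store ferritin, rose from 417 ± 42.9 CPM in vehicle to 1827 ± 273 in erastin-R and 694 ± 92.8 in RSL3-R (log2FC values 2.13 and 0.73, adjusted p = 7.59e-09 and 0.000115). BEST1, on the opposite strand with at most 33 counts, overlaps 62.4% of its exon length. Of the 50-base words of FTH1, 57.4% also occur in other genes, BEST1 foremost, so the counts of FTH1 are uncertain.

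Among glutathione genes, SLC7A11, the cystine importer that erastin blocks, rose in both groups by the largest factor of the list. It had 30.5 ± 0.649 CPM in vehicle, 207 ± 10.4 in erastin-R and 176 ± 3.25 in RSL3-R, with log2FC values of 2.76 and 2.53 (adjusted p = 6.24e-12 and 9.93e-12), and RSL3-R was below erastin-R by a log2FC of -0.23 (adjusted p = 0.00371). SLC7A11-AS1 overlaps 8.97% of its exon length on the opposite strand. GCLM, the modifier subunit of the first enzyme of glutathione synthesis, went in opposite directions. It had 66.1 ± 4.39 CPM in vehicle, 168 ± 11.1 in erastin-R and 50.2 ± 3.27 in RSL3-R, with log2FC values of 1.35 (adjusted p = 8.16e-09) and -0.40 (adjusted p = 0.000696). GCLC, the catalytic subunit, rose in erastin-R cells (1.49, adjusted p = 5.6e-09) and was not called in RSL3-R cells (0.16, adjusted p = 0.125, and 0.15 with adjusted p = 0.0348 without erastin-R replicate 1).

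Of the thioredoxin genes, TXNRD1, the reductase, rose from 526 ± 10.7 CPM in vehicle to 1471 ± 51.2 in erastin-R and 653 ± 18.2 in RSL3-R (log2FC values 1.48 and 0.31, adjusted p = 2.99e-10 and 0.000231). Thioredoxin itself (TXN) rose by 0.21 in erastin-R cells (adjusted p = 0.00732) and had a log2FC of -0.47 in RSL3-R cells (adjusted p = 1.39e-05). PRDX1, also of this group, fell in both, with log2FC values of -0.14 and -0.41 (adjusted p = 0.0415 and 3.62e-05). Its erastin-R call was lost when most single libraries were left out (adjusted p 0.0561 to 0.137). SRXN1, which repairs oxidised peroxiredoxins, rose in erastin-R cells (1.32, adjusted p = 0.000305), and its value of -0.46 in RSL3-R cells was not called (adjusted p = 0.159, and 0.019 without erastin-R replicate 1). AL121758.1, with at most 1 count, covers 84.95% of its exon length on the same strand, so its counts are uncertain.

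Neither of the export pumps was called lower in RSL3-R than in erastin-R cells. ABCC2 rose in erastin-R (log2FC 1.12, adjusted p = 0.000266) and RSL3-R cells (1.27, adjusted p = 0.0001). ABCC3 rose from 137 ± 13.3 CPM in vehicle to 209 ± 7.15 in erastin-R and 277 ± 6.83 in RSL3-R (adjusted p = 6.28e-06 and 5.28e-08). It was the 1 target higher in RSL3-R than in erastin-R cells (0.40, adjusted p = 0.000268). The carbonyl reductase CBR3 fell in both groups, from 6.73 ± 0.112 CPM in vehicle to 3.39 ± 0.0575 in erastin-R and 2.17 ± 0.394 in RSL3-R (log2FC values -0.99 and -1.63, adjusted p = 0.000149 and 3.3e-06). CBR3-AS1 overlaps 42.2% of its exon length on the opposite strand, and 35.7% of the 50-base words of CBR3 also occur in other genes, so its counts are uncertain. TRIM16L rose by 1.78 in erastin-R cells (adjusted p = 6.61e-10) and 0.31 in RSL3-R cells (adjusted p = 0.00437), but 43.3% of its 50-base words also occur in other genes, TRIM16 foremost, and its counts are uncertain.

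By pattern, 10 targets rose in both groups and were lower in RSL3-R than in erastin-R cells, among them HMOX1, FTH1, FTL, SLC7A11, TXNRD1 and SQSTM1. The pattern of NQO1 and OSGIN1, risen in erastin-R cells, not called in RSL3-R cells and lower there than in erastin-R cells, was shared by 8 targets (GCLC, GSR, SRXN1, TALDO1, TKT, UGDH, EPHX1 and PIR). Without erastin-R replicate 1 only TKT, EPHX1 and PIR, 3 of the 8, kept it, while GCLC and UGDH were called higher and GSR, SRXN1 and TALDO1 lower in RSL3-R cells.

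**Figure D4:**
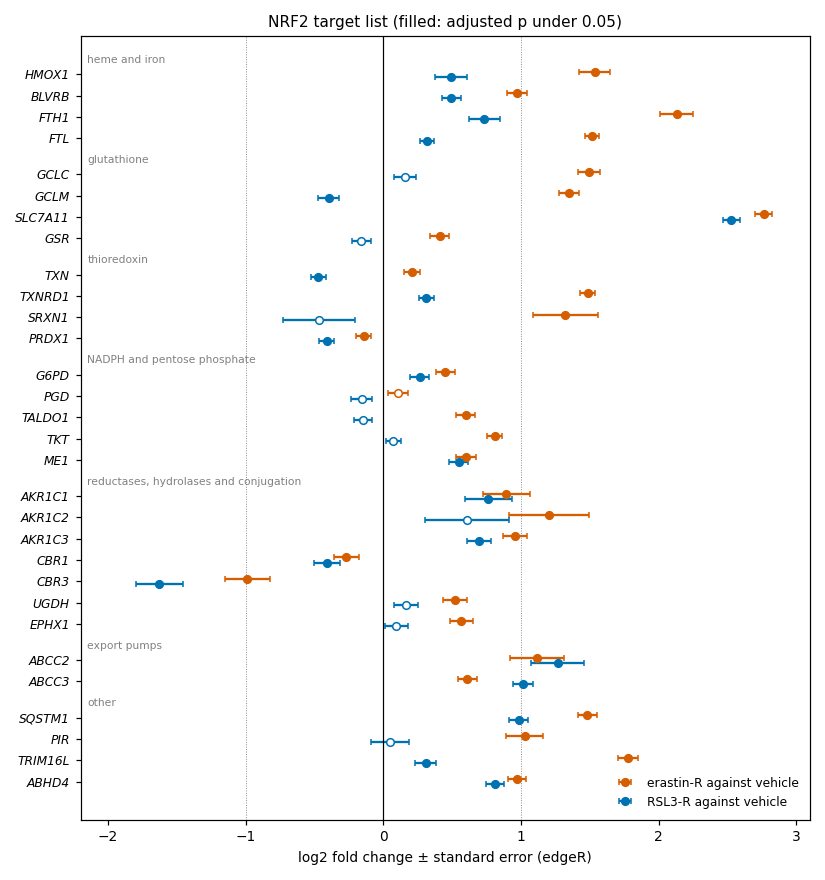
Log2 fold change with standard error from edgeR for the 30 tested NRF2 target genes other than NQO1 and OSGIN1, grouped by function, in erastin-R (orange) and RSL3-R (blue) cells against vehicle, with filled points where the adjusted p was under 0.05. Most orange points lie between 0 and 2, blue points of the same genes mostly lie to their left, GCLM and TXN have called points on both sides of 0, and CBR3 lies left of 0 in both.

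Other genes that govern NRF2 protein (20 genes, all tested) showed no common direction. In erastin-R cells 5 rose and 7 fell, and in RSL3-R cells 4 rose and 8 fell, with medians of -0.07 and -0.09. The 12 called in each comparison, of 20, stand beside 54.0% and 48.7% of all genes. The RSL3-R split was 6 and 6 with quantile normalization, which moved the direct comparison from 6 higher and 7 lower to 7 and 4. SQSTM1, the autophagy receptor p62 that draws KEAP1 into degradation, had 285 ± 13.0 CPM in vehicle, 797 ± 68.9 in erastin-R and 564 ± 26.3 in RSL3-R (log2FC values 1.48 and 0.98, adjusted p = 2.2e-09 and 7.29e-08). It is on the target list too, and MRNIP overlaps 20.7% of its exon length on the opposite strand with at most 1061 counts. SESN2, a stress protein that promotes this degradation, had 10.8 ± 0.624, 31.4 ± 2.73 and 54.6 ± 1.93 CPM and was higher in RSL3-R than in erastin-R cells (log2FC 0.80, adjusted p = 3.76e-06). DPP3, a peptidase that competes with NRF2 for KEAP1, fell by 0.74 in erastin-R cells (adjusted p = 1.5e-06) and by 1.24 in RSL3-R cells (adjusted p = 1.4e-08). RXRA, a nuclear receptor that binds and represses NRF2, fell by 0.51 and 0.38 on the log2 scale (adjusted p = 0.000728 and 0.00677), the second value being lost without RSL3-R replicate 3 (0.0506). PGAM5, a mitochondrial phosphatase bound by KEAP1, fell by 0.84 in RSL3-R cells (adjusted p = 1.54e-06) and had -0.08 in erastin-R cells (adjusted p = 0.408).

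NRF1 is pulled out of the endoplasmic reticulum, stripped of sugars and cut before it acts, and 10 genes of these steps and of its degradation were examined. In erastin-R cells 3 rose and 1 fell, where 54.0% of all genes were called. In RSL3-R cells, where NFE2L1 itself was higher, 5 rose and 4 fell, where 48.7% of all genes were called. The 4 that fell were VCP, UFD1, NPLOC4 and HCFC1. VCP had 492 to 513 CPM in vehicle and 374 to 386 in RSL3-R libraries, and UFD1 39.8 to 41.3 and 29.4 to 31.0. NPLOC4 had 221 to 228 and 177 to 183 CPM, and HCFC1 223 to 236 and 168 to 178. Directly compared, 3 were higher and 7 lower in RSL3-R than in erastin-R cells, beside 22.3% and 26.9% of all genes. DDI2, the protease that cuts NRF1, had 36.0 ± 3.97 CPM in vehicle, 39.1 ± 0.0843 in erastin-R and 54.5 ± 1.91 in RSL3-R (log2FC in RSL3-R 0.60, adjusted p = 3.63e-05). SEL1L, an adaptor of the endoplasmic reticulum ligase, and OGT, which adds a sugar to nuclear proteins, rose in RSL3-R cells by 0.83 and 0.82 (adjusted p = 9.85e-08 and 5.12e-08). OGT fell by 0.18 in erastin-R cells (adjusted p = 0.0135), which was lost without vehicle replicate 3 (0.0535) or erastin-R replicate 3 (0.0534). NGLY1, which strips the sugars, rose in erastin-R cells (0.35, adjusted p = 0.000367) and stood at -0.00055 in RSL3-R cells (adjusted p = 0.995). FBXW7, a ubiquitin ligase subunit, rose in both groups, by 0.83 (adjusted p = 1.07e-05) and 0.49 (adjusted p = 0.00114). SYVN1, the endoplasmic reticulum ligase, rose by 0.42 in erastin-R cells (adjusted p = 6.73e-05) and by 0.17 in RSL3-R cells (adjusted p = 0.0361), the second call being lost without any one of vehicle replicates 1 and 2 and RSL3-R replicates 1 and 2 (0.0547 to 0.173).

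The 31 proteasome subunits, the classical targets of NRF1, fell in larger number than they rose. In RSL3-R cells none rose and 23 fell, with a median log2FC of -0.34, beside 24.9% of all genes that fell. DESeq2 and limma each called 0 higher and 22 lower, and an unadjusted p under 0.05 gave 0 and 24. In erastin-R cells 4 rose, 13 fell and 14 were not called (median -0.14), beside 27.1% of all genes higher and 26.8% lower. Without erastin-R replicate 1, PSMA5, PSMA7, PSMB4 and PSMB6 joined the risen and PSMC2, PSMD4 and PSMD8 the fallen. PSMB2, a subunit of the catalytic core, had 130 ± 4.20 CPM in vehicle, 101 ± 8.46 in erastin-R and 73.7 ± 1.31 in RSL3-R (log2FC values -0.37 and -0.82, adjusted p = 0.000385 and 3.51e-07). The ATPase subunit PSMC3 fell by 0.83 in erastin-R and 0.78 in RSL3-R (adjusted p = 2.15e-06 and 4.29e-06), and PSMC5, another ATPase, by 0.81 and 0.70 (adjusted p = 1.49e-06 and 6.47e-06). Exons of FTSJ3 on the opposite strand, with at most 1775 counts in a library, cover 19.5% of the exon length of PSMC5. PSMD1, a subunit of the regulatory cap, fell by 0.63 and 0.69 on the log2 scale (adjusted p = 4.03e-05 and 2.14e-05). The core subunits PSMA4 and PSMA2 fell by 0.65 and 0.99 in erastin-R cells (adjusted p = 0.00012 and 0.00809). In RSL3-R cells PSMA4 fell by 0.34 (adjusted p = 0.0146, and 0.0953 without RSL3-R replicate 1), and PSMA2, with group means of 1.96 to 3.89 CPM, had a log2FC of -0.49 (adjusted p = 0.148). PSMA2 had 20 to 79 counts in a library and 32.6% of its 50-base words also occur in other genes, so its counts are uncertain.

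**Figure D5:**
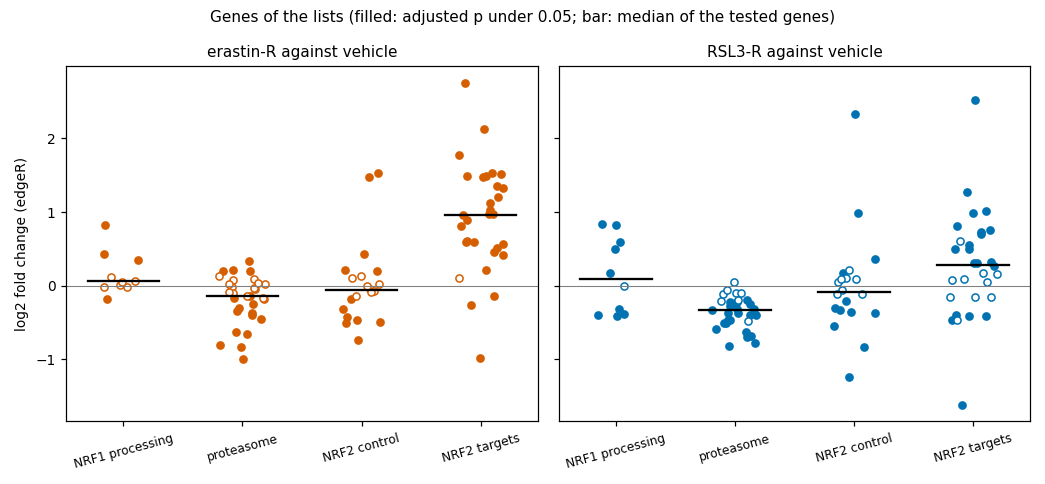
Log2 fold changes from edgeR of the genes of 4 lists in erastin-R (left) and RSL3-R cells (right) against vehicle, each point a gene, filled where the adjusted p was under 0.05, with a bar at the median. The median of the NRF2 targets is 0.96 on the left and 0.29 on the right, and 23 of the 31 proteasome points on the right are filled and below 0.

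Among relatives of these factors, MAF and MAFA had too few counts to test. NFE2L3, a close relative of NFE2L1, rose by 0.20 in RSL3-R cells (adjusted p = 0.00682) and had -0.13 in erastin-R cells (adjusted p = 0.0582, and 0.0379 without erastin-R replicate 1). NFE2 and BACH2 were not called in either comparison with vehicle, NFE2 with a wide 95% interval of -0.05 to 1.63 in erastin-R cells.

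Across all 9 libraries, the genes whose centred log2 CPM was closest to that of a gene were looked up among 12960 protein-coding genes, by root mean square (RMS) difference. For NFE2L2, whose own RMS deviation was 0.276, they were DDX10 (0.0827), CCDC59 (0.0844) and BPTF (0.0911). For NQO1, with a deviation of 0.567, they included ZNF699 (0.0978) and ATP8B1 (0.104). For OSGIN1 (0.609) they were TTLL11 (0.111), TGFBR3L (0.125) and KAZALD1 (0.125). None of the genes named here is on the target list.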

How the data were processed

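Poly(A)-selected RNA of 9 MDA-MB-231 libraries was sequenced on an Illumina instrument with a kit that does not mark strand. The authors deposited, for each library, unnormalized gene counts. The methods state that uniquely mapped reads in exons were used, and the submitters' processing notes name HISAT2 2.0.5 and featureCounts 1.5.0-p3. Deposited FPKM values (called RPKM in the methods) were made from these counts with a library size of 0.990 to 1.035 times the total count, and they served only for levels between genes. Of the 58735 gene identifiers and coordinates, 58724 equal those of GENCODE 29 (GRCh38), and 34018 genes had a count.

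The main test was that of edgeR 4.0.16 in R 4.3.3 (filterByExpr, TMM, quasi-likelihood test, all 9 libraries in 1 model without covariates), and p values were adjusted by Benjamini-Hochberg over 16188 genes. CPM are counts scaled to the TMM-adjusted library size, and centred log2 CPM used a prior count of 3. Alternatives were DESeq2 1.42.0, total-count scaling, quantile normalization with limma 3.58.1, no filter, 2 groups alone, a block on the replicate number, an unadjusted p, a 2-fold minimum and leaving out each library. Groups and replicate numbers came from the labels. The genes and lists were chosen with earlier results of these data known. Besides the 10 genes, the text names from each list the 4 largest called changes per comparison with vehicle (mean of at least 1 CPM, no overlap with vehicle), HMOX1, GCLM, SLC7A11, TXNRD1, SRXN1 and SQSTM1, the relatives, and the 3 nearest profiles of NFE2L2, NQO1 and OSGIN1. Other genes, such as FTL, BLVRB, GCLC, TXN, CAND1, VCP, UFD1, NPLOC4, HCFC1, PSMB1, PSMB3 and PSMD2, were named for their group or pattern after their values were seen. Some genes that this rule would name are not reported here. Python 3.11.15, pandas 2.3.3 and matplotlib 3.10.9 made summaries and figures. Scripts were tested on simulated counts.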

Additional observations from a re-analysis of the deposited data

Results flagged for a closer look

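Genes were picked out where erastin-R and RSL3-R cells differed in the direct edgeR test (3 libraries per group) and, among the 10 genes, differed in their call against vehicle, or, among the 4 lists, had opposite calls against vehicle. Values are on the log2 scale. NQO1 rose by 1.20 in erastin-R cells and had -0.01 in RSL3-R cells, a difference of -1.21 (adjusted p = 3.04e-09), with every RSL3-R library below every erastin-R library. OSGIN1 had 1.14 and -0.27, a difference of -1.41 (adjusted p = 1.31e-05), also without overlap.

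NFE2L1 went the other way, with -0.07 and 0.87, a difference of 0.94 (adjusted p = 3.13e-08) and no overlap. NFE2L2 had 0.17 and 0.53, a difference of 0.35 (adjusted p = 0.0255), and KEAP1 had -0.05 and -0.40, a difference of -0.36 (adjusted p = 0.0129). Both of these overlapped, and both calls were lost when certain single libraries were left out, as given beside the genes. Without erastin-R replicate 1 both calls stayed, at 0.525 and -0.491 (adjusted p = 3.84e-07 and 2.8e-07).

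Of the targets, GCLM had 1.35 and -0.40, a difference of -1.75 (adjusted p = 1.95e-09), and TXN had 0.21 and -0.47, a difference of -0.68 (adjusted p = 6.89e-07). OGT had -0.18 and 0.82, a difference of 1.001 (adjusted p = 1.52e-08), its erastin-R call being lost without vehicle or erastin-R replicate 3 (adjusted p 0.0535 and 0.0534). CAND1, which takes cullin ligases apart, had 0.20 and -0.36, a difference of -0.56 (adjusted p = 9.18e-06), its erastin-R call being lost without vehicle replicate 1 or 2 or erastin-R replicate 2 (adjusted p 0.0938, 0.0666 and 0.0502). Among proteasome subunits, PSMB1 had 0.20 and -0.23, a difference of -0.43 (adjusted p = 2.02e-05), and PSMB3 had 0.22 and -0.32, a difference of -0.54 (adjusted p = 9.93e-06), its erastin-R call being lost without vehicle replicate 2 (0.0516). PSMD2 had 0.19 and -0.20, a difference of -0.39 (adjusted p = 0.000229), and its calls against vehicle were each lost without any one of 4 libraries (adjusted p 0.0655 to 0.143).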

How the results depend on the processing

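Each count below is of genes called in erastin-R, RSL3-R and the direct comparison, in that order. A 2-fold minimum as well as the adjusted p lowered the 10 genes from 6, 7 and 9 to 4, 1 and 2, NRF2 targets from 29, 20 and 24 to 13, 4 and 8, the control list to 2, 2 and 0, the NRF1 processing list to 0, 0 and 1, the proteasome to 0, 0 and 0, and all genes to 2162, 1635 and 1674. Leaving out 1 library gave 6 to 7, 6 to 7 and 6 to 10 of the 10 genes, 27 to 29, 20 to 26 and 20 to 25 targets, 10 to 12, 9 to 14 and 11 to 15 of the control list, 3 to 5, 8 to 9 and 9 to 10 of NRF1 processing, 13 to 24, 19 to 24 and 13 to 19 of the proteasome, and 7708 to 9957, 6637 to 9401 and 6625 to 9492 of all genes. The remaining settings kept every count within 1.5 times.

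Signs changed for uncalled values. NFE2L2 in erastin-R cells was -9.02e-05 without erastin-R replicate 1, KEAP1 in erastin-R cells was 0.01 (0.0122) without vehicle replicate 1 and 0.09 (0.0859) without erastin-R replicate 1, and NQO1 in RSL3-R cells was 0.00728 with DESeq2, 0.00624 with total-count scaling, 0.0615 with quantile normalization and 0.0202, 0.0173 and 0.0161 without RSL3-R replicates 1, 2 and 3. Over all left-out libraries these values ran from -9.02e-05 to 0.30 (NFE2L2), -0.14 to 0.09 (KEAP1) and -0.0243 to 0.0202 (NQO1). The cause was not tested. Of the log2 fold changes of the 10 genes, 20 lost and 4 gained a call, all given beside the genes.

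Deviations from the group means of same-numbered libraries had a mean correlation of -0.00495 over 9 pairs, from -0.0904 to 0.0518. The mean over the 18 other pairs (0.00256) is largely fixed by the first, because deviations within a group sum to 0. These values show no common deviation by number but cannot exclude a pairing. A replicate block gave 6, 7 and 9 calls among the 10 genes. With 15405102 to 17273464 counts per library, depth limits only OSGIN1 among the 10 genes.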
